A study of Mus musculus with 6 samples.

Results

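Aldh1a1 and Rbp7 encode proteins that handle vitamin A inside cells. They were taken as every probe set annotated to either gene in the deposited value table, and both genes were chosen on the difference between Stat3 d/d and Stat3 f/f arrays, so their levels in that comparison are given as a description, with no test. Each gene had 1 probe set (1416468_at for Aldh1a1 and 1449461_at for Rbp7), or 2 of the 1382 in the table and 2 of its 987 named genes. The RNA was total RNA from whole uterus of female mice at 3.5 days post coitum, measured on 6 Affymetrix arrays: 3 of Stat3 d/d uteri (replicates 1, 2 and 3) and 3 of Stat3 f/f uteri (replicates 1, 2 and 4). Stat3 encodes a transcription factor that answers interleukin-6 type cytokines. In the usual notation f is an allele flanked by loxP sites and d the allele after its deletion, so the Stat3 f/f mice are the controls with an intact gene. The labels name no Cre driver, no cell type of deletion, no strain and no age, and do not say whether an array holds the RNA of 1 animal.

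Retinol reaches tissues in the blood bound to RBP4, which travels with transthyretin. In the cell, small retinol-binding proteins such as RBP7 hold retinol, retinol dehydrogenases oxidise it to retinaldehyde, and retinaldehyde dehydrogenases such as ALDH1A1 turn retinaldehyde into retinoic acid. Retinoic acid binds nuclear receptors (RARs, paired with RXRs), is carried by the CRABP proteins, and is broken down by CYP26 enzymes. In the uterus retinoic acid signalling takes part in the preparation of the endometrium for the embryo. Rbp7 is known in mice from adipose tissue and from the endothelium of small vessels, and Aldh1a1 is used as a marker of progenitor-like epithelial cells in several tissues.

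Both genes were lower in the same arrays, as were all 451 lower probe sets of the table, so this does not set the pair apart. Their upstream sequences are shown as a description. They come from RefSeq (GRCm38.p6), are written 5′ to 3′ on the gene's strand, and end at the base before the annotated start. RefSeq gives 1 start for Rbp7 (chr4:149454969-149455218, minus strand) and 2 for Aldh1a1, an upstream one (chr19:20492333-20492582, plus strand) and a downstream one (chr19:20601718-20601967, plus strand). Capitals mark a CCAAT box, the only searched motif that these stretches hold.
Rbp7: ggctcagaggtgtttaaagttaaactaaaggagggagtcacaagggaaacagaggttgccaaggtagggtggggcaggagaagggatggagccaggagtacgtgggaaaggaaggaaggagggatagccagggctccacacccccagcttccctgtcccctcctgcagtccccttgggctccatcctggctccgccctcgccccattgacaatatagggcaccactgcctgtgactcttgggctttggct
Aldh1a1 upstream start: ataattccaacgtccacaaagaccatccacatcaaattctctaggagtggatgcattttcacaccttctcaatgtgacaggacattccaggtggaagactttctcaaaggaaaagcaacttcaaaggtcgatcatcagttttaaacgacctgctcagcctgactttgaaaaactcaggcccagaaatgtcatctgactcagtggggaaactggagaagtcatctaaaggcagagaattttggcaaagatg
Aldh1a1 downstream start: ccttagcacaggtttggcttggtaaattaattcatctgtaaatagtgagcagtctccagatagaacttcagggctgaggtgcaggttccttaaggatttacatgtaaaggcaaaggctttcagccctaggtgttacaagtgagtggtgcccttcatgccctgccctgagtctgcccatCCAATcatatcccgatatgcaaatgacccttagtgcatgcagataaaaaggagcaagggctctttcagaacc
The windows, with a further 50 bases after the start, were searched on both strands. The STAT motif TTCNNNGAA, found in 8.3% of the 32851 promoter windows of the reference, has 0 matches in these 3 windows. The nuclear receptor motif AGGTCA has 0 matches in them, against 16.3% of all windows with one, and the TATA box TATAAA likewise 0, against 13.6%. CCAAT, added to the search after the sequences were seen, has 2 matches by the downstream Aldh1a1 start, beginning 72 and 2 bases upstream of it, and occurs in 37.4% of all windows. Where a letter pattern is missing, it is missing only from these windows, and which start was used in these uteri was not examined.

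The table itself is a selection. Group means lie 1.5-fold or more apart for all 1382 probe sets, 0 have overlapping groups, and all 1382 (100%) pass an adjusted p of 0.05 in limma, 451 of them (32.6%) lower and 931 (67.4%) higher in Stat3 d/d. Passing the test and being free of overlap therefore says nothing particular of any gene here, and a gene outside the table was not analysed. Stat3 itself was at 41.0% (1460700_at) and 42.6% (1426587_a_at) of its Stat3 f/f mean in Stat3 d/d uteri, and whether these probe sets lie in the deleted part was not examined. Of 5 genes taken as a check of the tissue, only the progesterone receptor gene Pgr was in the table, at 645 to 730 in Stat3 d/d and 1065 to 1613 in Stat3 f/f. As the table holds only probe sets that differ, the absence of the others says nothing of their expression, and the check is incomplete. Intensities are on a linear scale, and the number of arrays limits their precision.

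Rbp7 was lower on every Stat3 d/d array than on any Stat3 f/f array. Its intensity was 12.2, 20.7 and 16.6 in Stat3 d/d replicates 1, 2 and 3, against 93.0, 98.5 and 100.6 in Stat3 f/f replicates 1, 2 and 4. All 3 Stat3 d/d arrays were low and all 3 Stat3 f/f arrays high, with no overlap, and the lowest Stat3 f/f array was 4.49-fold above the highest Stat3 d/d array. The means were 16.5 ± 4.27 in Stat3 d/d and 97.4 ± 3.91 in Stat3 f/f (SD, n = 3 each), so that Stat3 d/d uteri held 16.9% of the Stat3 f/f level. On the log2(intensity + 1) scale the difference, Stat3 d/d minus Stat3 f/f, was -2.52 (SE 0.20). In whole-tissue RNA, fewer cells of a type and less RNA per cell cannot be told apart.

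The Stat3 d/d arrays spanned 1.70-fold for Rbp7, a coefficient of variation of 25.9%, and the Stat3 f/f arrays 1.08-fold, at 4.01%. Of the 451 lower probe sets, 430 had a wider spread (SD of log2 values) among Stat3 f/f arrays than Rbp7, and 8 had a wider gap between the nearest arrays of the groups. By log2 change Rbp7 stood at position 5 of the 327 lower genes, and at 5 or 6 with any 1 array left out. Directly before it came Lcn2 (-3.33, SE 0.30), an iron-scavenging lipocalin, and Cfi (-3.31, SE 0.30), the complement factor I protease. Directly after it came the serine protease inhibitor Serpina3n (-2.49, SE 0.52) and Cuedc1 (-2.33, SE 0.18), a gene named for its ubiquitin-binding CUE domain. Leaving out any 1 array kept the value of Rbp7 between -2.69 and -2.33.

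**Figure D1:**
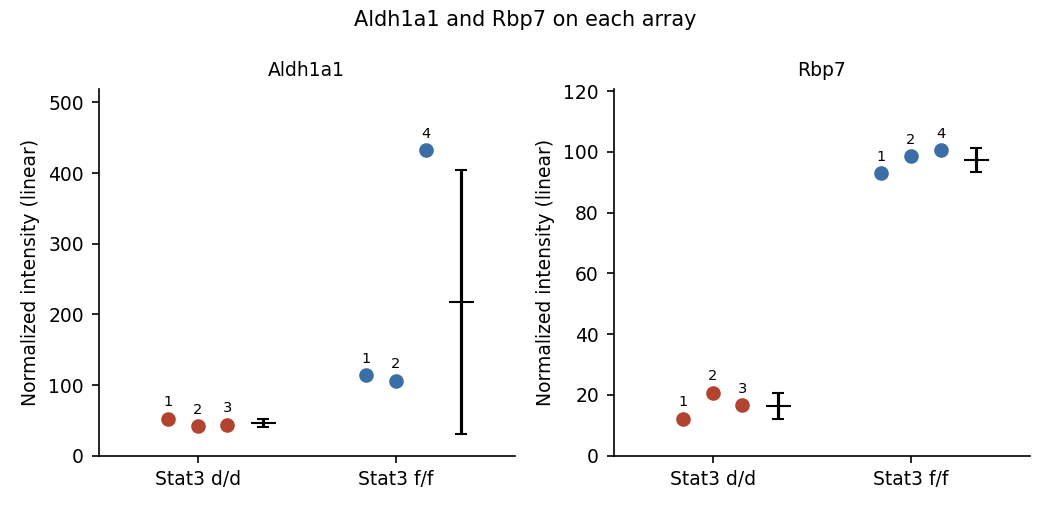
Normalized intensity (linear axis from 0) of Aldh1a1 and Rbp7 on each array, Stat3 d/d left and Stat3 f/f right, with replicate numbers beside the points and the mean ± SD at the side of each group. Rbp7 is at 12.2 to 20.7 in Stat3 d/d and 93.0 to 100.6 in Stat3 f/f, while for Aldh1a1 Stat3 f/f replicate 4 (432) stands far above the other 2 Stat3 f/f arrays.

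Aldh1a1 was lower in Stat3 d/d too, but with a wide spread among the controls. Its intensity was 52.6, 41.6 and 43.6 in Stat3 d/d replicates 1, 2 and 3, against 114, 106 and 432 in Stat3 f/f replicates 1, 2 and 4. The Stat3 d/d arrays sat close together and below every Stat3 f/f array, and Stat3 f/f replicate 4 stood apart from the other 2 controls. The means were 45.9 ± 5.86 in Stat3 d/d and 218 ± 186 in Stat3 f/f (SD, n = 3 each), which puts Stat3 d/d at 21.1% of its controls. Against the mean of Stat3 f/f replicates 1 and 2 alone, Stat3 d/d uteri held 41.7%, and against Stat3 f/f replicate 4 alone 10.6%. The log2 difference was -1.91 (SE 0.44) over all 6 arrays and -1.25 (SE 0.19) without Stat3 f/f replicate 4. Without any other single array it lay between -2.26 and -1.84, so its size depended on 1 control array. As the groups do not overlap, leaving out 1 array could not have reversed the direction.

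For Aldh1a1 the Stat3 d/d arrays spanned 1.26-fold and the Stat3 f/f arrays 4.08-fold. Of the 451 lower probe sets, 2 had a wider spread of log2 values among Stat3 f/f arrays, and 44 a wider gap between the nearest arrays of the groups, which was 2.02-fold for Aldh1a1. By log2 change it stood at position 14 of the 327 lower genes, after Itga9 (-1.995, SE 0.20), an integrin alpha chain, and Adat2 (-1.96, SE 0.17), a tRNA adenosine deaminase. After it came Lgr5 (-1.91, SE 0.43), a receptor for R-spondins that marks epithelial stem cells, and the gap junction gene Gjb2 (-1.84, SE 0.42). This position rests on Stat3 f/f replicate 4: without that array Aldh1a1 stood at 49, and without any other single array between 8 and 18. Aldh1a7, a close copy of Aldh1a1, is the next protein-coding gene along the chromosome in RefSeq. It was not in the table, and whether the Aldh1a1 probes also read its transcript was not tested.

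Stat3 f/f replicate 4 stood apart for other genes as well. Its Aldh1a1 value was 3.93 times the mean of Stat3 f/f replicates 1 and 2, a ratio exceeded by 1 of the 451 lower probe sets, whereas for Rbp7 the ratio was 1.05. It was the highest of the Stat3 f/f arrays for 223 of the 451 lower probe sets (49.4%), against 101 for replicate 1 and 127 for replicate 2. Among the 931 higher probe sets it was the lowest Stat3 f/f array for 383, and replicate 2 for 384. The part of this array in the Aldh1a1 difference is therefore measured, by the values with and without it, and what set the array apart was not tested.

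Some markers of several cell types stood apart on Stat3 f/f replicate 4, and others did not. Its ratio to the mean of the other 2 controls was 0.279 for the oviductal gene Ovgp1, 0.53 for the lymphocyte gene Nkg7, 0.653 for the luminal gene Cldn3, 1.46 for the stromal gene Dcn and 1.49 for Pgr. For the luminal genes Calb1 and Cldn4 it was 0.932 and 1.06, and for the leukocyte gene Itgax 1.17. For the mesothelial gene Upk3b it was 1.05 and for the adipocyte gene Lpl 0.992. Every uterine gland marker in the table is given, and these are not the only markers with such ratios. Of 18 listed markers 5 were in the table, 3 of them lower (Cfi, Lgr5, Sox9) and 2 higher (Fxyd4, Ttr) in Stat3 d/d. Of all probe sets 32.6% were lower. The list's median log2 change was -0.79, the value of Sox9, against 0.70 over all probe sets. With 5 genes spread from -3.31 to 2.23 in a table without small changes, this median says little of the list. Its summed intensity, mostly Fxyd4, was 2187 to 2431 in Stat3 d/d and 521 to 1093 in Stat3 f/f. Markers such as Foxa2 were outside the table and were not analysed.

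Lgr5 read 3.98, 5.33 and 4.32 in Stat3 d/d replicates 1, 2 and 3, against 11.99, 12.6 and 48.9 in Stat3 f/f replicates 1, 2 and 4. Cfi read 7.16, 8.38 and 9.54 in Stat3 d/d, against 73.0, 64.9 and 159 in Stat3 f/f. For both, as for Aldh1a1, Stat3 f/f replicate 4 was the highest array, at 3.98 and 2.30 times the mean of the other 2 controls. Sox9, a transcription factor of gland epithelium, read 9.08 to 11.0 in Stat3 d/d and 16.5 to 22.4 in Stat3 f/f on its brighter probe set. There replicate 4 stood at 1.34 times the mean of the other 2 controls, and the log2 change was -0.79, or -0.66 without it. The dimmer Sox9 probe set gave a ratio of 1.43 and a log2 change of -0.83. Fxyd4, a regulator of the sodium pump, went the other way, at 2209, 2100 and 2353 in Stat3 d/d, against 961, 978 and 286 in Stat3 f/f. There Stat3 f/f replicate 4 was the lowest array, at 0.295 times the mean of the other 2. Without it the log2 changes were -1.27 for Lgr5 (all arrays -1.91), -2.91 for Cfi (all arrays -3.31) and 1.19 for Fxyd4 (all arrays 1.78). Each still passed (adjusted p = 0.000206, 5.7e-07 and 0.000211 in limma). So did 1362 of the 1382 probe sets in that fit, so passing says nothing particular of these genes. For Aldh1a1, Lgr5, Cfi and Fxyd4, and also for Sox9 and Ttr, replicate 4 was the control array farthest from the Stat3 d/d arrays.

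**Figure D2:**
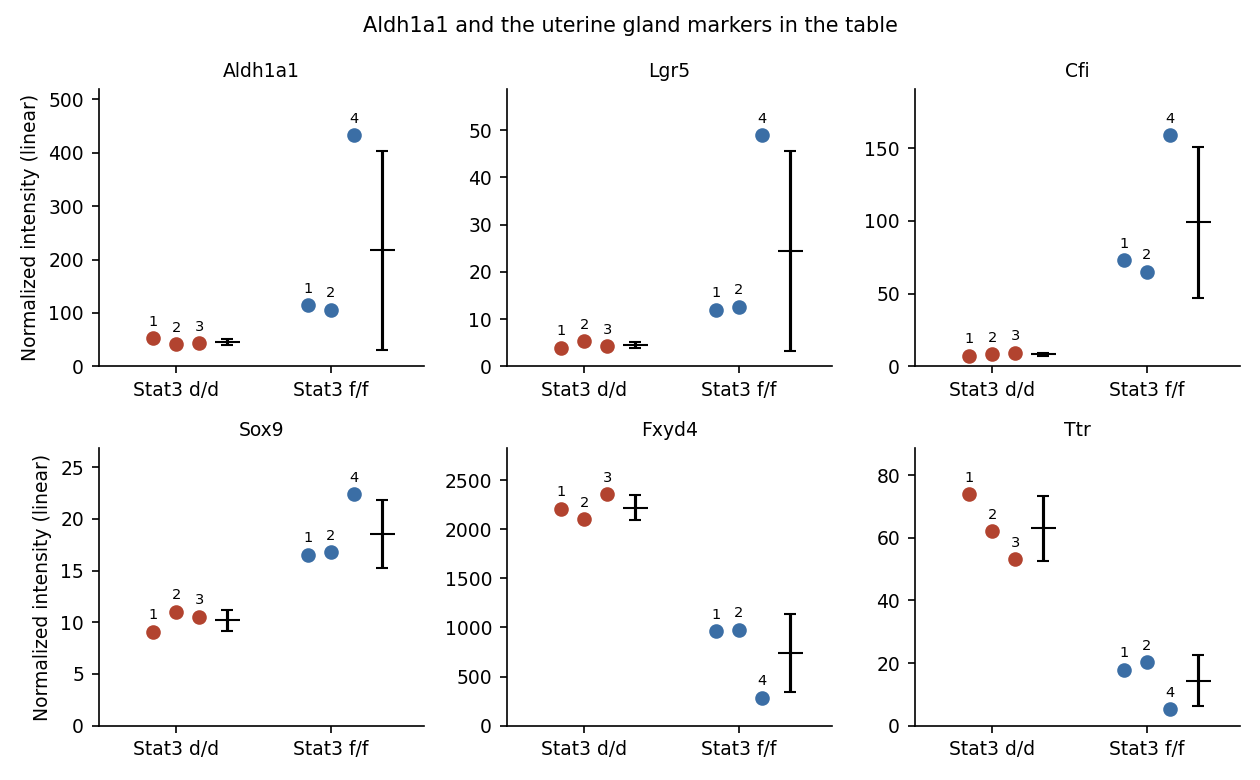
Normalized intensity (linear axes from 0) of Aldh1a1 and of the 5 uterine gland markers in the table, 1 panel a gene, Stat3 d/d left and Stat3 f/f right, with replicate numbers and the mean ± SD. Stat3 f/f replicate 4 is the highest array for Aldh1a1, Lgr5, Cfi and Sox9 and the lowest for Fxyd4 and Ttr.

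Genes with the profile most like each member were found by the root mean square difference of log2 values over the 6 arrays, after centring each profile on its own mean. Nearest to Aldh1a1 were Lgr5 (0.20), the gastrokine gene Gkn3 (0.33), the protease inhibitor A2m (0.34), the receptor activity-modifying protein gene Ramp3 (0.35) and the ligand gene Wnt4 (0.35). Ramp3 read 179, 149 and 128 in Stat3 d/d, against 338, 323 and 734 in Stat3 f/f. Wnt4 read 17.6, 14.5 and 18.0 in Stat3 d/d, against 29.5, 36.7 and 86.9 in Stat3 f/f. All 5 peaked on Stat3 f/f replicate 4, as a choice by likeness to the Aldh1a1 profile favours.

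Nearest to Rbp7 were Cuedc1 (0.23), Paip1 (0.28), a partner of the poly(A)-binding protein, and Hddc3 (0.30), an HD domain gene, followed by Itga9 (0.33) and the cyclin D1 gene Ccnd1 (0.33). The Paip1 and Ccnd1 probe sets are not the brightest of their genes. Cuedc1 read 12.6, 14.3 and 12.5 in Stat3 d/d, against 67.4, 60.8 and 82.5 in Stat3 f/f. Ccnd1 read 43.0, 41.2 and 40.2 on this probe set in Stat3 d/d, against 171, 181 and 170 in Stat3 f/f. Paip1 varied more within the groups, at 8.55, 14.3 and 12.7 in Stat3 d/d, against 77.9, 50.9 and 49.9 in Stat3 f/f. The brighter Ccnd1 probe set departed from the Rbp7 profile, at 275, 267 and 249 in Stat3 d/d, against 377, 412 and 402 in Stat3 f/f, a log2 change of -0.59 where the other set gave -2.04. The lists nearest to Rbp7 and Aldh1a1 held no gene in common. All profiles come from the same 6 arrays of a table selected on the group difference, so likeness between them is partly built in.

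**Figure D3:**
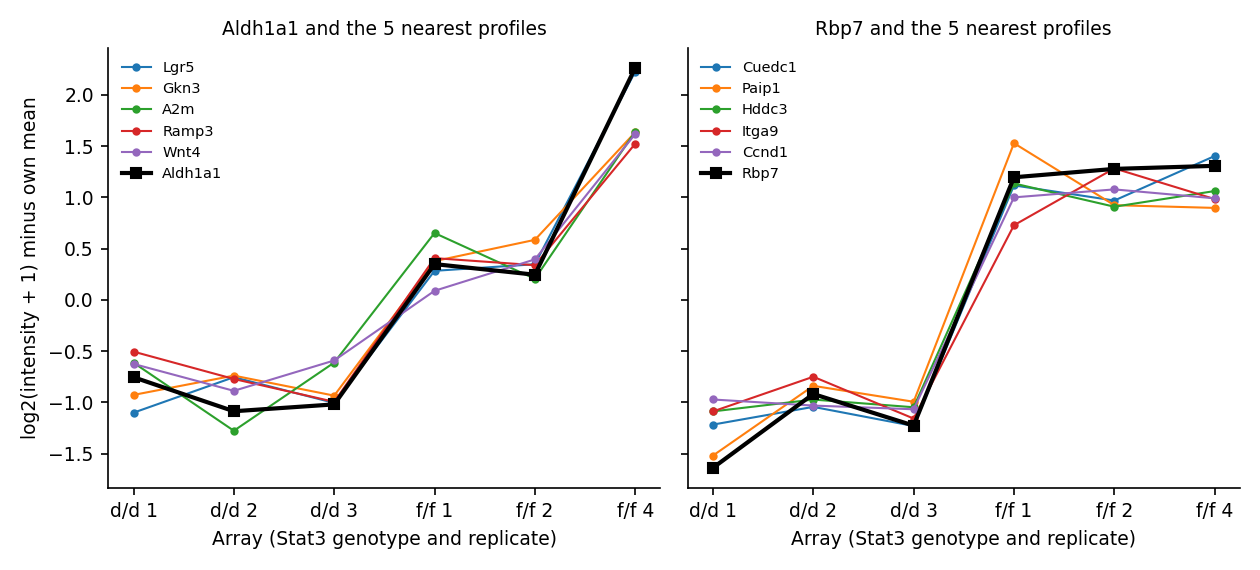
Values of log2(intensity + 1) minus each probe set's own mean, for Aldh1a1 (left) and Rbp7 (right) in black with their 5 nearest genes in colour, over the 3 Stat3 d/d and then the 3 Stat3 f/f arrays. All genes of the Aldh1a1 panel peak at Stat3 f/f replicate 4. In the Rbp7 panel that array is the highest only for Rbp7 and Cuedc1. Both panels separate by genotype, as every probe set of the table does.

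The rest of the vitamin A pathway was followed through 6 gene lists covering transport and binding, retinol oxidation, retinaldehyde oxidation, degradation, receptors with their cofactors, and responsive genes. Of their 76 genes 6 were in the table, and all 6 passed, as does 100% of the table. Of these, 4 were lower (Rbp7, Aldh1a1, Crabp1, Rarb) and 2 higher (Ttr, Nrip1) in Stat3 d/d, where 32.6% of all probe sets were lower. Their median log2 change was -0.80 against 0.70 over all probe sets, but single values ran from -2.52 to 2.23. Rbp7 and Aldh1a1 were chosen on this difference, so the count and the median partly follow from that choice. The other genes went both ways, Crabp1 and Rarb lower and Ttr and Nrip1 higher, so they give the pathway no common direction. The lists of retinol oxidation (25 genes) and of retinoic acid degradation (4 genes) had 0 members in the table, as had the 16 other aldehyde dehydrogenases and the 10 fatty acid-binding proteins, the protein family of Rbp7.

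Crabp1, the cytoplasmic carrier of retinoic acid, read 26.4, 28.8 and 30.2 in Stat3 d/d replicates 1, 2 and 3, against 51.3, 38.9 and 72.0 in Stat3 f/f replicates 1, 2 and 4. The Stat3 d/d arrays were all lower, and Stat3 f/f replicate 4 was again the highest. The gene fell by 0.86 (SE 0.22, adjusted p = 0.00429 in limma) on the log2 scale, to 52.6% of the Stat3 f/f mean, and by 0.63 without Stat3 f/f replicate 4 (adjusted p = 0.0103).

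Rarb, a retinoic acid receptor whose own gene is a textbook target of retinoic acid, read 8.14, 5.69 and 7.01 in Stat3 d/d, against 15.0, 9.31 and 12.9 in Stat3 f/f. These are dim values near the lowest intensity of the table (2.47), and the nearest arrays of the groups were 1.14-fold apart. Rarb fell by 0.74 (SE 0.21, adjusted p = 0.00611 in limma). Its promoter holds the element through which retinoic acid receptors act, a direct repeat of receptor motifs of the AGGTCA type (A or G at the first base, G or T at the third) with 5 bases between them. The stretch is shown with the repeat in capitals (chr14:16575493-16575549, minus strand, RefSeq GRCm38.p6).
Rarb: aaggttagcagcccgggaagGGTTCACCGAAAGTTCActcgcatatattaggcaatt
The repeat begins 53 bases upstream of the annotated start, and a TTCNNNGAA match lies inside it. Such a repeat, searched for after the sequences were seen, occurs in 32 of the 32851 promoter windows (0.0974%), and in 0 of the 3 windows of Aldh1a1 and Rbp7.

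Ttr, the transthyretin that carries retinol-bound RBP4 in blood, was higher in Stat3 d/d on all 3 of its probe sets. Its brightest probe set read 73.8, 62.2 and 53.1 in Stat3 d/d replicates 1, 2 and 3, against 17.8, 20.2 and 5.22 in Stat3 f/f replicates 1, 2 and 4. Stat3 f/f replicate 4 was the lowest array, at 0.274 times the mean of the other 2 controls. The gene rose by 2.23 (SE 0.39, adjusted p = 0.000689 in limma) on the log2 scale, and by 1.67 without that array. The other 2 probe sets gave 1.203 (SE 0.28) and 1.98 (SE 0.43), and the suffixes of the brightest (_s_at) and of one other (_x_at) mark sequence shared with other transcripts.

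Nrip1, a corepressor of nuclear receptors that retinoic acid is known to induce, read 16.8, 14.8 and 25.8 in Stat3 d/d, against 10.2, 8.0 and 9.21 in Stat3 f/f. Each Stat3 d/d array was above each Stat3 f/f array, on a dim probe set. Nrip1 rose by 0.96 (SE 0.22, adjusted p = 0.00242 in limma). It did not pass after each array was centred on its median over the table (0.49, adjusted p = 0.0662) or after quantile normalization (0.48, adjusted p = 0.0772). These scalings lowered the median change of all probe sets to 0.24 and 0.25, against 0.70 without them. Rarb and Nrip1, both on the list of responsive genes, thus went in opposite directions.

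**Figure D4:**
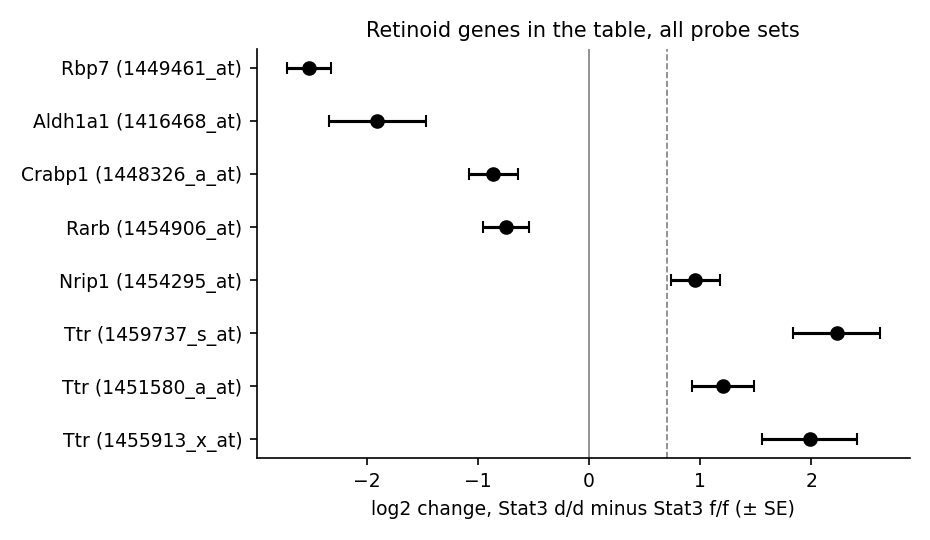
Log2 change, Stat3 d/d minus Stat3 f/f (points, with SE bars), of the 8 probe sets of the 6 pathway genes in the table. The solid line marks 0 and the dashed line the median of all 1382 probe sets (0.70); Rbp7 and Aldh1a1 lie lowest, at -2.52 and -1.91, and the 3 Ttr probe sets between 1.203 and 2.23.

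Markers of the cells in which Rbp7 is known were mostly outside the table. Of 18 endothelial markers 0 were in it. Of 13 adipocyte markers 1 was, the lipoprotein lipase gene Lpl, at 24.4, 21.8 and 33.3 in Stat3 d/d, against 48.7, 39.2 and 43.6 in Stat3 f/f. Lpl fell by 0.72 (SE 0.20, adjusted p = 0.00525 in limma). Markers of luminal epithelium were higher in 4 of the 4 genes in the table (15 listed), where 67.4% of all probe sets were higher. Their summed intensities were 3388 to 3715 in Stat3 d/d and 1211 to 1523 in Stat3 f/f. Calb1 alone read 2222 to 2434 in Stat3 d/d and 658 to 758 in Stat3 f/f. Of the 4 genes, Calb1 passed after both scalings named above, and Cldn3, Cldn4 and Lpar3 passed after neither (adjusted p from 0.128 to 0.267 in limma). The 7 leukocyte markers in the table (14 listed) were all higher, at 523 to 840 in Stat3 d/d and 164 to 273 in Stat3 f/f in sum, and Adgre1 passed after neither scaling (adjusted p = 0.0623 and 0.0685 in limma). Single markers of other cells were the stromal gene Dcn, lower by a log2 change of -1.06, and the mesothelial gene Upk3b, higher by 0.74 but not past the threshold after either scaling (adjusted p = 0.237 and 0.299 in limma). Both scalings shift changes downward, so they weaken higher genes and deepen lower ones. After quantile normalization and median centring Lpl stood at -1.18 and -1.19, and Dcn at -1.52 each time. Ovgp1, the oviductal glycoprotein gene, was at 239.7 to 494 in Stat3 d/d and 7.42 to 31.3 in Stat3 f/f. The part of cell composition in the Aldh1a1 and Rbp7 differences was not tested.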

How the data were processed

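Biotin-labelled cRNA made from uterine RNA was put on Affymetrix arrays, per the labels' protocols. The submitters' processing notes name RMA, a method of background correction, quantile normalization and probe summary, with no version. Genome build and probe set selection: not given in the sources used here. Values as deposited are intensities, taken from their range (2.47 to 4352) to be on a linear scale. Groups come from the source names and replicate numbers from the titles.

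Probe sets were named through the platform annotation: 1191 had 1 symbol, 57 several and 134 none here. Of the identifiers 1186 matched the RefSeq gene table (GRCm38.p6), which changed 0 symbols. The brightest probe set stands for a gene. The fit of Stat3 d/d against Stat3 f/f used log2(intensity + 1) in limma (version 3.58.1, under R 4.3.3), with moderated variances and genotype as the only term. Adjusted p-values are Benjamini-Hochberg values over the 1382 probe sets of the table, read at 0.05. As the table is a selection on this comparison, they give no error rate for the whole array. The pseudocount of 1 understates changes of dim genes. As the labels name no separate animals, p-values reflect only the spread among these 6 arrays, part of which may be technical. The fit was tested on simulated data in which most probe sets were unchanged. This table is unlike that, so the simulation does not bear on its p-values.

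Members and gene lists were chosen with earlier results of these data known. Named genes are the members, Stat3, list genes in the table, the 5 nearest profiles and the 2 genes ranked on either side of each member. Alternatives were no pseudocount, quantile normalization, median centring, leaving out the dimmest 0.25 of probe sets, a variance trend, the replicate block, each array left out, and averaging probe sets within a gene. Same-numbered arrays had correlations of deviations of 0.088 and 0.028, with 2 pairs, so the numbers were not taken to pair samples.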

Additional observations from a re-analysis of the deposited data

How the results depend on the processing

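Across the 13 alternatives tried for each gene, the log2 change ran from -2.37 to -1.22 for Aldh1a1 and from -2.99 to -2.33 for Rbp7. Both were lower in Stat3 d/d throughout, which was largely fixed in advance. The groups do not overlap, so leaving out 1 array cannot reverse the direction. The variance trend, leaving out dim probe sets and averaging 1 probe set leave the value as it is. The Rbp7 value moved by more than its spread to -2.91 after quantile normalization and -2.99 after median centring, as both scalings lower the median change of the table. Aldh1a1 shifted by a similar amount, to -2.35 and -2.37, which is within its spread among the Stat3 f/f arrays. They also cut the probe sets that passed from 1382 to 887 (436 higher, 451 lower) and 873 (422 higher, 451 lower). The split between higher and lower calls therefore depends on the scaling, which a selected table cannot settle. With each array left out in turn, 1347 to 1377 probe sets passed, and all 6 retinoid genes did. With the replicate number as a block, 1284 probe sets passed, the Aldh1a1 value was -1.22 and the Rbp7 value -2.51. That block uses only replicates 1 and 2 for the contrast, and so leaves out Stat3 f/f replicate 4. Of the 6 retinoid genes 5 passed after either scaling (without Nrip1) and without the dimmest 0.25 of probe sets, where Rarb was not tested. The main limits are 3 arrays a group, a table selected on this comparison, and 1 probe set for each member.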

Other observations

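The 3 probe sets closest to Rbp7 in profile carry no single gene name (none or several symbols) in the annotation used here. 1452731_x_at read 55.0, 61.3 and 55.9 in Stat3 d/d replicates 1, 2 and 3, against 313, 355 and 357 in Stat3 f/f replicates 1, 2 and 4, a root mean square difference from Rbp7 of 0.17 on the log2 scale. 1428301_at read 108, 116 and 114 in Stat3 d/d, against 525, 682 and 618 in Stat3 f/f (0.20). 1458585_at read 5.44, 6.05 and 5.73 in Stat3 d/d, against 43.9, 35.0 and 45.6 in Stat3 f/f (0.22). Their log2 changes were -2.55, -2.42 and -2.65, with SEs of 0.16 to 0.17 (Rbp7: -2.52). They were picked out after their values were seen.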
